A study of Mus musculus with 6 samples.

Results

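The genes described here are 34 genes of the unfolded protein response (UPR) and the integrated stress response, chosen by name from the 36930 features of the deposited tables. They fall into 4 roles. These are 14 chaperones and folding enzymes of the endoplasmic reticulum (ER), 7 sensors and transcription factors, 6 stress-induced effectors and targets of the transcription factor ATF4, and 7 genes of ER-associated degradation and translocation. They were measured by RNA-Seq in regulatory T cells (Tregs) sorted from the BM of 3 mice with chronic myeloid leukemia (CML) and 3 naive mice, with 1 library for each mouse. All 6 mice were Foxp3-DTR-GFP animals in postnatal week 8, in which the Foxp3 locus drives the diphtheria toxin receptor and GFP. The CML mice had received, without irradiation, syngeneic LSKs (lineage-negative, c-kit+ Sca-1+ progenitors) that carried the BCR-ABL1-GFP retrovirus, and their Tregs were taken at day 15 after induction. The naive mice had no leukemia. The CML hosts kept their own marrow, and the leukemia cells and the Tregs of these mice both carried GFP.

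Proteins that enter the ER are folded by chaperones and oxidoreductases. When unfolded proteins accumulate, the sensors IRE1, ATF6 and PERK become active. IRE1 splices the Xbp1 mRNA, ATF6 is cut to a free transcription factor, and PERK phosphorylates the translation factor eIF2, which lowers general translation while ATF4 is made. Other kinases phosphorylate eIF2 upon amino acid shortage, viral RNA or heme shortage, and this wider program is the integrated stress response. In T cells these programs accompany activation, protein secretion and nutrient shortage.

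The question was whether this program differed between BM Tregs of CML and naive mice. No member passed an adjusted p of 0.05 with a fold of 1.5, where 24 of the 13923 genes tested (0.172%) did. Of the 33 members tested, 16 had a positive and 17 a negative log2 fold change, CML minus naive. The largest log2 fold change was that of Asns, the asparagine synthetase and a target of ATF4, which averaged 7.04 ± 3.82 RPKM in the CML group and 0.43 ± 0.58 RPKM in the naive group (SD, n = 3). The protein disulfide isomerase Pdia3 and the sensor Ern1 (IRE1) had all CML libraries above all naive ones, and Ppp1r15a, which recruits the phosphatase that reverses eIF2 phosphorylation, had all of them below.

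The values are RPKM (reads scaled to the length of the gene and to the mapped reads of the library), and differences are log2 fold changes, CML minus naive, on the scale of log2(RPKM + 1), which understates the change of low genes. They were tested with limma across all genes whose mean reached 1 RPKM and adjusted after Benjamini and Hochberg. The libraries held an estimated 5187987 to 9751911 reads in naive Tregs and 7613827, 829181 and 2286190 reads in CML replicates 1, 2 and 3. CML replicate 2 stood apart, since its 10 highest features held 50.7% of all values and those of the other 5 libraries 28.5% to 31.3%. All 9 Treg markers had reads in every library, with Foxp3 at 299 to 468 RPKM in CML and 297 to 367 RPKM in naive Tregs. Over all genes tested the median log2 fold change was -0.18, and 35.7% of the genes had a positive one, so members are read against this shift. The shift was -0.03 without CML replicate 2 and -0.01 with quantile normalization. In bulk RNA, more cells of a type and more RNA per cell cannot be told apart.

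By an unadjusted p under 0.05 in limma, 2 members were higher in CML Tregs (Pdia3, and Asns, which reached the mean required for the test only through the CML group) and 1 was lower (Ppp1r15a). Among all genes tested, 2.92% were higher and 6.77% were lower by this rule. Counted by libraries that did not overlap, 3 members lay above (Asns, Ern1 and Pdia3) and 1 lay below (Ppp1r15a), where 4.84% of all genes lay above and 12.2% below. The median log2 fold change of the 33 members was -0.01, and 48.5% of them were positive. With 3 mice in each group an exact permutation test of a single gene cannot give a p below 0.1. A limma p-value here sets the difference between group means against the spread within the groups, drawn toward a trend over all genes tested. With 1 library for each mouse, that spread holds differences between mice and between libraries together.

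**Figure D1:**
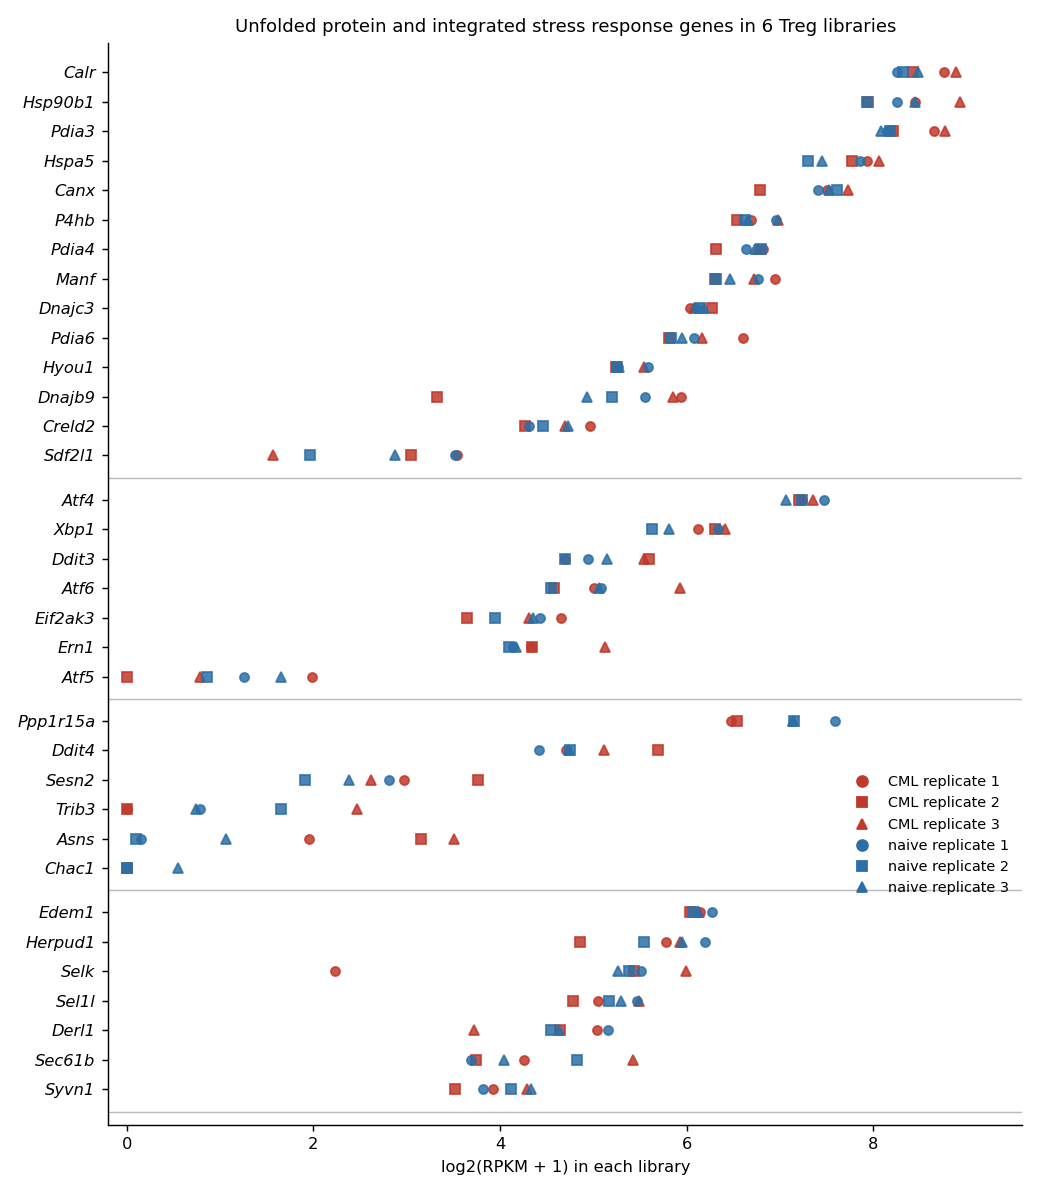
Level of each of the 34 members in each of the 6 libraries, as log2(RPKM + 1), grouped by role from chaperones at the top to degradation genes at the bottom and ordered by mean within a role. Red symbols are CML and blue symbols naive libraries, with 1 symbol for each replicate. CML and naive symbols overlap for most members, and Asns and Ppp1r15a are among the 4 in which they do not.

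The members covered a wide range of levels. In naive Tregs the most abundant were Calr (326 ± 26.1 RPKM), Hsp90b1 (299 ± 52.6 RPKM) and Pdia3 (281 ± 9.37 RPKM; SD, n = 3), and the range of Hsp90b1 over the naive libraries overlapped with those of the other two. Hspa5 (187 ± 38.8 RPKM) and Canx (183 ± 12.99 RPKM) followed. At the other end lay Trib3 (1.18 ± 0.83 RPKM), Asns and Chac1, and Chac1 had reads in naive replicate 3 only, at 0.46 RPKM. Chac1, a glutathione-degrading enzyme and ATF4 target, was the member that did not reach the mean required for the test. In the 3 CML libraries its value was 0, where 3 reads would equal 0.24, 2.21 and 0.80 RPKM.

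The chaperones and folding enzymes were the most abundant role. Their 14 members summed to 2245, 1666 and 2475 RPKM in CML replicates 1 to 3 and to 1879, 1713 and 1857 RPKM in naive replicates 1 to 3, so the groups overlapped. Their log2 fold changes ran from -0.19 to 0.41 with a median of 0.07, and 7 were positive and 7 negative.

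Pdia3, a disulfide isomerase that acts on glycoproteins held by calreticulin and calnexin, had 402, 296 and 436 RPKM in CML replicates 1 to 3. In naive replicates 1 to 3 it had 283, 289 and 271 RPKM. The naive libraries lay close together, and CML replicate 2 exceeded the highest of them by little. The log2 fold change was 0.41 (SE 0.17, 95% interval 0.01 to 0.81), with an unadjusted p of 0.0471 and an adjusted p of 0.508 in limma. Of the 6 fits that leave out 1 library, only that without CML replicate 2 kept Pdia3 under an unadjusted p of 0.05. The p also exceeded 0.05 with the replicate number as a block, without the variance trend, with a pseudocount of 0.001 and without the filter. Pdia3 lies on chr2:121413775-121438687 (GRCm38, plus strand) and overlaps Catsper2 on the other strand, and the kit does not mark strand.

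Hspa5 encodes BiP, the main ER chaperone of the Hsp70 family, which binds the sensors in unstressed cells. It had 243, 218 and 265 RPKM in CML replicates 1 to 3 and 231, 157 and 174 RPKM in naive replicates 1 to 3. Naive replicate 1 lay among the CML libraries and the other 2 naive libraries lay below all of them. The log2 fold change was 0.38 (SE 0.18, 95% interval -0.04 to 0.81; adjusted p = 0.558, limma), and 0.27 to 0.54 over 16 other settings of the analysis. Without naive replicate 1 the groups no longer overlapped.

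Calr, the lectin chaperone calreticulin, had 433, 344 and 471 RPKM in CML Tregs and 305, 318 and 355 RPKM in naive Tregs. Only CML replicate 2 and naive replicate 3 overlapped, and the log2 fold change was 0.34 (SE 0.16, adjusted p = 0.559, limma). Its membrane-bound relative Canx went from 109 to 211 RPKM in CML and from 169 to 195 RPKM in naive Tregs (log2 fold change -0.18). Hsp90b1, the Hsp90 of the ER, ranged from 246 to 488 RPKM in CML and from 244 to 348 RPKM in naive Tregs (log2 fold change 0.23).

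The other folding enzymes showed small differences. Pdia6, P4hb and Pdia4, further disulfide isomerases, had log2 fold changes of 0.24, -0.01 and -0.09. The BiP cochaperone Dnajc3 was the most even member of this role, with 64.6 to 76.4 RPKM in CML and 67.8 to 71.6 RPKM in naive Tregs. Hyou1, a nucleotide exchange factor of BiP, had 40.0 ± 4.91 RPKM in CML and 40.6 ± 5.55 RPKM in naive Tregs (SD, n = 3). Manf and Creld2, which are secreted upon ER stress, had log2 fold changes of 0.15 and 0.15. Dnajb9, a BiP cochaperone and XBP1 target, had 60.5, 9.01 and 56.9 RPKM in CML Tregs and 46.1, 35.8 and 29.6 RPKM in naive Tregs. CML replicate 2 was low and the other 2 CML libraries lay above all naive libraries. The low value of Dnajb9 rests on an estimated 18 reads. Sdf2l1, a low-level cofactor of BiP, varied from 1.97 to 10.7 RPKM in CML and from 2.91 to 10.4 RPKM in naive Tregs.

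The ER stress response element (ERSE), to which ATF6 and XBP1 bind, consists of CCAAT and CCACG with 9 bases between them. It was searched on both strands in the RefSeq promoters of GRCm38.p6, which run from 250 bases before to 50 after a start, and 30 of the 34 members had such a promoter (Atf6, Derl1, Hyou1 and Manf did not). The element lay in 8 of the 30 members (26.7%) and in 37 of 27025 genes (0.137%; 0.119% of 32851 promoters). The members were chosen as genes of this response, so this contrast with all genes follows from the choice and is no result of these data. The members were Calr, Canx, Creld2, Dnajc3, Hsp90b1, Hspa5, Pdia6 and Syvn1, and their log2 fold changes ran from -0.18 to 0.38 with a median of 0.19. The 150 bases before the start of Hspa5 (chr2:34771940-34772089, plus strand) are shown because this gene is the standard readout of the response, with the letters of the element in capitals. The annotation used here (GENCODE M21) places the first start of the gene within this stretch.
Hspa5: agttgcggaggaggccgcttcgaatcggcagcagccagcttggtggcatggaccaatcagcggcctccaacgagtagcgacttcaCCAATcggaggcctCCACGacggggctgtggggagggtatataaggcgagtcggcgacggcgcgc

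For comparison, the sites of the other members are given with 10 bases on each side, on the strand that reads CCAAT first. They differ in the 9 bases of the gap and in the flanks. Hsp90b1 held a pair of sites in opposite orientation, which start 107 and 212 bases before its RefSeq start. The sites lie on chr8:84847065-84847103 (plus, Calr), chr11:50325790-50325828 (minus, Canx), chr15:88819510-88819548 (minus, Creld2), chr14:118937817-118937855 (plus, Dnajc3), chr10:86705523-86705561 (plus, Hsp90b1 near site), chr10:86705628-86705666 (minus, Hsp90b1 far site), chr12:17266481-17266519 (plus, Pdia6) and chr19:6046522-6046560 (plus, Syvn1).
Calr: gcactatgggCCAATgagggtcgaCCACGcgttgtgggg
Canx: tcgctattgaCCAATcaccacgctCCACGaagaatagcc
Creld2: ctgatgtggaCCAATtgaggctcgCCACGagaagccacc
Dnajc3: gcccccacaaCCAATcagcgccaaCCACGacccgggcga
Hsp90b1, near site: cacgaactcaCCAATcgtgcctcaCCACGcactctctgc
Hsp90b1, far site: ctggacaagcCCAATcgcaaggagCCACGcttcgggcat
Pdia6: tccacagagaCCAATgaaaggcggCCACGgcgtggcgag
Syvn1: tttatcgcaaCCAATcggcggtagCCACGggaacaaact

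Among the members with this element, Hspa5 (0.38), Calr (0.34), Pdia6 (0.24) and Hsp90b1 (0.23) had positive log2 fold changes, Creld2 (0.15) and Dnajc3 (-0.01) lay near 0, and Syvn1 (-0.18) and Canx (-0.18) lay at the median of all genes. Differences among these members were not tested. None of the 8 passed the adjusted p. The core of the UPR element bound by XBP1, TGACGTGG, was in the promoter of 0 of the 30 members and of 0.714% of all genes. On its other strand this core begins with CCACG, so a match could overlap an ERSE.

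**Figure D2:**
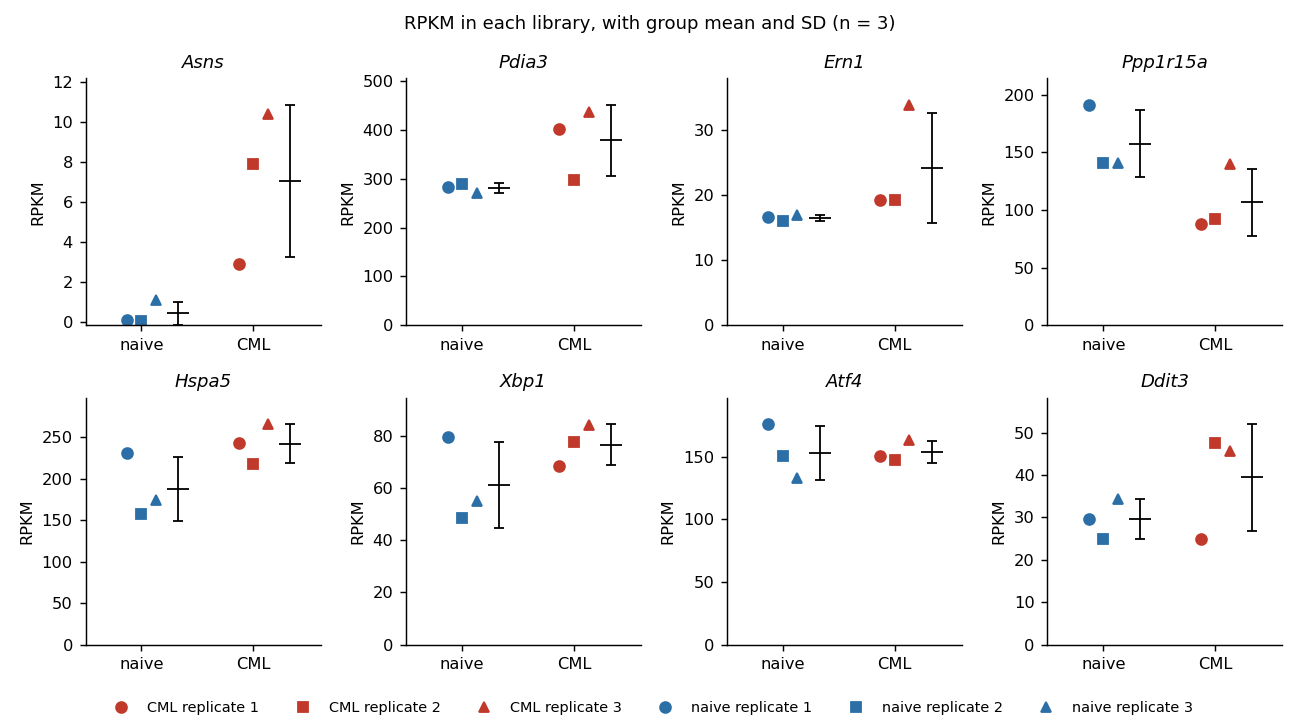
RPKM of 8 members in each of the 3 naive (blue) and 3 CML (red) libraries, with the group mean and SD (n = 3) beside the points and a symbol for each replicate. Asns, Pdia3 and Ern1 lie higher and Ppp1r15a lower in all CML libraries, and naive replicate 1 lies among or near the CML libraries for Hspa5 and Xbp1.

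The 7 sensors and transcription factors had log2 fold changes from -0.33 to 0.47 with a median of 0.27, and 5 of them were positive. Their summed level was 321, 326 and 407 RPKM in CML replicates 1 to 3 and 357, 277 and 294 RPKM in naive replicates 1 to 3. Naive replicate 1 lay above 2 of the CML libraries.

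Ern1 had 19.2, 19.3 and 33.8 RPKM in CML replicates 1 to 3 and 16.6, 16.0 and 17.0 RPKM in naive replicates 1 to 3. CML replicates 1 and 2 were close to the naive range and CML replicate 3 was far above it. The log2 fold change was 0.47 (SE 0.29, 95% interval -0.21 to 1.14), with an unadjusted p of 0.147 and an adjusted p of 0.637 in limma. The difference did not exceed the spread between the libraries. Over 16 settings it ran from 0.21, without CML replicate 3, to 0.60. Ern1 spans chr11:106394650-106487852 (GRCm38, minus strand) with 22 exons in its longest transcript and overlaps no other gene.

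Xbp1, the transcription factor whose mRNA IRE1 splices, had 68.6, 77.8 and 84.3 RPKM in CML Tregs and 80.0, 48.6 and 55.0 RPKM in naive Tregs. Naive replicate 1 lay among the CML libraries and the other 2 naive libraries below them, as for Hspa5. The log2 fold change was 0.35 (SE 0.22, 95% interval -0.16 to 0.87; adjusted p = 0.641, limma). The values sum all forms of the mRNA, so the spliced share was not measured here.

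Atf6 had 31.2, 22.8 and 60.0 RPKM in CML Tregs and 32.9, 22.3 and 32.4 RPKM in naive Tregs. CML replicate 3 alone set the higher mean, and the log2 fold change of 0.27 (SE 0.36) became -0.11 without it. Eif2ak3, which encodes PERK, had 24.2, 11.5 and 18.8 RPKM in CML Tregs and 20.5, 14.4 and 19.5 RPKM in naive Tregs. The groups overlapped fully, with a log2 fold change of -0.04 (SE 0.33) whose sign turned under 7 of 16 settings.

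Atf4, translated when eIF2 is phosphorylated, had 150, 147 and 163 RPKM in CML Tregs and 176, 150 and 133 RPKM in naive Tregs. The means were 154 ± 8.602 and 153 ± 21.5 RPKM (SD, n = 3), with a log2 fold change of 0.01 and a 95% interval of -0.36 to 0.38. Ddit3, the ATF4-induced factor CHOP that favors cell death, had 24.9, 47.6 and 45.7 RPKM in CML Tregs and 29.7, 24.96 and 34.4 RPKM in naive Tregs. CML replicates 2 and 3 lay above all naive libraries and CML replicate 1 below them, with a log2 fold change of 0.35 (SE 0.29, adjusted p = 0.706, limma). Ddit3 overlaps Mars on the other strand, and their reads cannot be told apart without strand. Atf5, a related factor, was near the limit of detection with 0 to 2.97 RPKM in CML and 0.82 to 2.15 RPKM in naive Tregs.

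**Figure D3:**
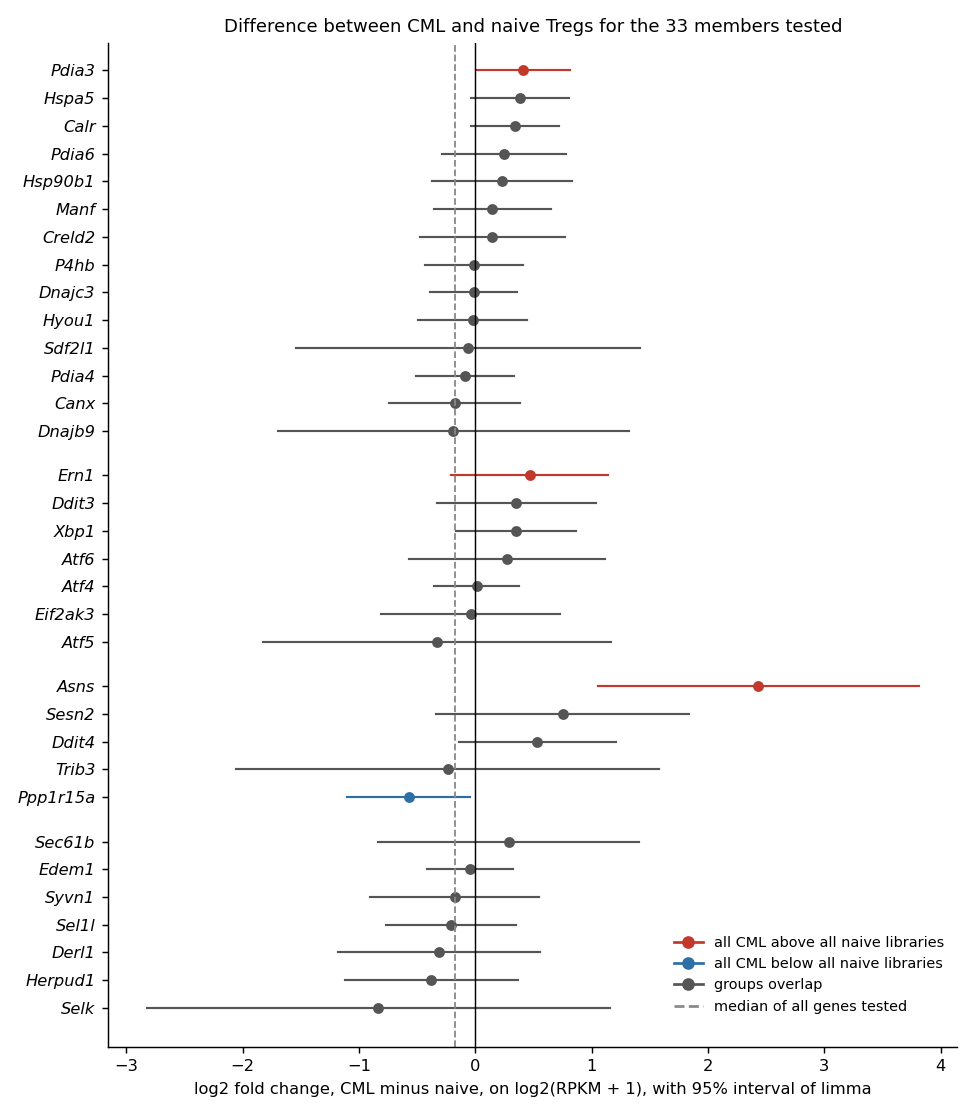
Log2 fold change of the 33 members tested, CML minus naive on log2(RPKM + 1), with the 95% interval of limma (n = 3 in each group), grouped by role. Red marks the 3 members whose CML libraries all lie above the naive libraries, blue the 1 whose CML libraries all lie below, gray the others, and the dashed line the median of all genes at -0.18. Intervals of 3 members leave out 0, those of Asns, Pdia3 and Ppp1r15a.

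The effectors held the widest differences. Asns converts aspartate to asparagine and is a standard readout of ATF4. It had 2.88, 7.87 and 10.4 RPKM in CML replicates 1 to 3 and 0.11, 0.07 and 1.095 RPKM in naive replicates 1 to 3. Every CML library lay above every naive library. The naive values of replicates 1 and 2 stand for an estimated 1 read each, under the 3 reads that would equal 0.29 and 0.17 RPKM in these libraries. Naive replicate 3 held an estimated 22 reads, and the CML libraries 44, 13 and 48 reads. The log2 fold change was 2.43 (SE 0.60, 95% interval 1.05 to 3.81), with an unadjusted p of 0.00369 and an adjusted p of 0.248 in limma. Asns reached the mean of 1 RPKM required for the test only through the CML group, so the values are a description and its p is no support for a difference. At a required mean of 5 RPKM it was not tested, and over the other 15 settings its log2 fold change ran from 1.94 to 4.91 and its adjusted p from 0.148 to 0.787.

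Asns spans chr6:7675169-7693254 (GRCm38, minus strand) with 12 exons in its longest transcript, and overlaps no other gene. The C/EBP-ATF element, TGATGNAA, is the letter pattern to which ATF4 binds with its partners. It was found in the promoters of 4 of 30 members (13.3%; Asns, Chac1, Herpud1 and Trib3) and in 4.51% of 27025 genes (3.97% of promoters). Since targets of ATF4 were chosen as members, this contrast is a description only. No member held the element together with an ERSE. The 150 bases before the RefSeq start of Asns (chr6:7693210-7693359, GRCm38.p6, minus strand) are shown because Asns was the member with the largest log2 fold change. The capitals mark the element, which lies 23 to 16 bases before the start, and GENCODE places the first start of the gene within this stretch.
Asns: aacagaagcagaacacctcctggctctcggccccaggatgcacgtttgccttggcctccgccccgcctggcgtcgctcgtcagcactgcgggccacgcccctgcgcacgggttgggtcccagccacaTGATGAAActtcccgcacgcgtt

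The sites of Chac1 (chr2:119351039-119351066, minus strand) and Herpud1 (chr8:94386307-94386334, minus strand) read as follows with 10 bases on each side, and that of Trib3 lies after its start.
Chac1: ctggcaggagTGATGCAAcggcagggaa
Herpud1: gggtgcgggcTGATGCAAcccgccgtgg

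The other 3 genes with the element did not share the pattern of Asns. Chac1 was at 0 in all CML libraries. Trib3, a pseudokinase induced by ATF4 and CHOP, had 0, 0 and 4.52 RPKM in CML Tregs and 0.72, 2.14 and 0.67 RPKM in naive Tregs. Herpud1 had a log2 fold change of -0.38 (SE 0.32).

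Ppp1r15a was the member with lower values in CML Tregs. It had 88.0, 92.3 and 140 RPKM in CML replicates 1 to 3 and 191, 141 and 140 RPKM in naive replicates 1 to 3. CML replicates 1 and 2 lay well below the naive range, while CML replicate 3 (139.8 RPKM) and naive replicate 3 (140.4 RPKM) nearly met. The means were 107 ± 28.8 and 158 ± 29.2 RPKM (SD, n = 3). The log2 fold change was -0.57 (SE 0.23, 95% interval -1.1 to -0.05), with an unadjusted p of 0.0359 and an adjusted p of 0.487 in limma. It was negative in all 16 settings (-0.78 to -0.43), but the unadjusted p exceeded 0.05 without CML replicate 1 or 2, without naive replicate 1 or 2, with the replicate number as a block and without the variance trend. Ppp1r15a lies on chr7:45522916-45526268 (GRCm38, minus strand) and overlaps Tulp2 on the other strand.

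Of 12 early response genes, which are known to rise during the handling of cells, 7 had a negative and 5 a positive log2 fold change. This gives 41.7% positive, compared with 35.7% of all genes tested. Fos had 241 ± 84.3 RPKM in CML and 317 ± 20.7 RPKM in naive Tregs, and Btg2 97.6 ± 46.3 and 158 ± 24.4 RPKM (SD, n = 3). Egr1 lay above in all CML libraries (37.9 ± 3.67 against 16.3 ± 6.29 RPKM). The summed list gave 1980 to 2640 RPKM in CML and 2160 to 3390 RPKM in naive Tregs. The highest sum was that of naive replicate 3, where Hspa1a and Hspa1b had 793 and 859 RPKM. In naive replicates 1 and 2 they had 167 and 160 RPKM (Hspa1a) and 177 and 169 RPKM (Hspa1b). The part of these genes in the values of Ppp1r15a was not tested.

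Sesn2 and Ddit4 restrain the kinase mTORC1. Sesn2 had 6.83, 12.5 and 5.15 RPKM in CML Tregs and 6.01, 2.76 and 4.19 RPKM in naive Tregs. Only CML replicate 3 and naive replicate 1 overlapped, and the log2 fold change was 0.75 (SE 0.47, adjusted p = 0.639, limma). Ddit4 had 25.1, 50.7 and 33.6 RPKM in CML Tregs and 20.4, 25.9 and 25.7 RPKM in naive Tregs. CML replicate 1 lay within the naive range, and the log2 fold change was 0.53 (SE 0.29, adjusted p = 0.592, limma).

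The 7 genes of ER-associated degradation and translocation, which return misfolded proteins to the cytosol or bring new ones in, had a median log2 fold change of -0.21. That lies near the median of -0.18 over all genes tested. It was negative in 6 of them and positive in 1, the translocon subunit Sec61b (0.29, SE 0.49). This gives 14.3% positive, compared with 35.7% of all genes tested. None passed the unadjusted p and all overlapped between the groups. The summed level was 224, 208 and 309 RPKM in CML replicates 1 to 3 and 296, 254 and 264 RPKM in naive replicates 1 to 3. CML replicate 3 lay above and the other 2 CML libraries below all naive libraries.

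Herpud1, which gathers the degradation complex, had 54.0, 28.0 and 60.0 RPKM in CML and 72.6, 45.7 and 60.8 RPKM in naive Tregs. The ubiquitin ligase Syvn1 and its partner Sel1l had log2 fold changes of -0.18 and -0.21. The mannosidase-like Edem1, which selects glycoproteins for degradation, was even across all libraries with 64.6 to 69.9 RPKM in CML and 66.0 to 76.2 RPKM in naive Tregs. Derl1, a channel component, had 32.0, 23.9 and 12.2 RPKM in CML and 34.7, 22.3 and 23.9 RPKM in naive Tregs.

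Selk, a selenoprotein now named Selenok, had 3.69, 42.3 and 62.9 RPKM in CML Tregs and 44.6, 40.8 and 37.4 RPKM in naive Tregs. CML replicate 1 was far below all others, and the log2 fold change of -0.83 (SE 0.86) became 0.33 without it. Selk has 5 near-identical copies in the annotation (at least 95% identity over at least 200 bases), between which reads may have been split, so its level is uncertain.

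**Figure D4:**
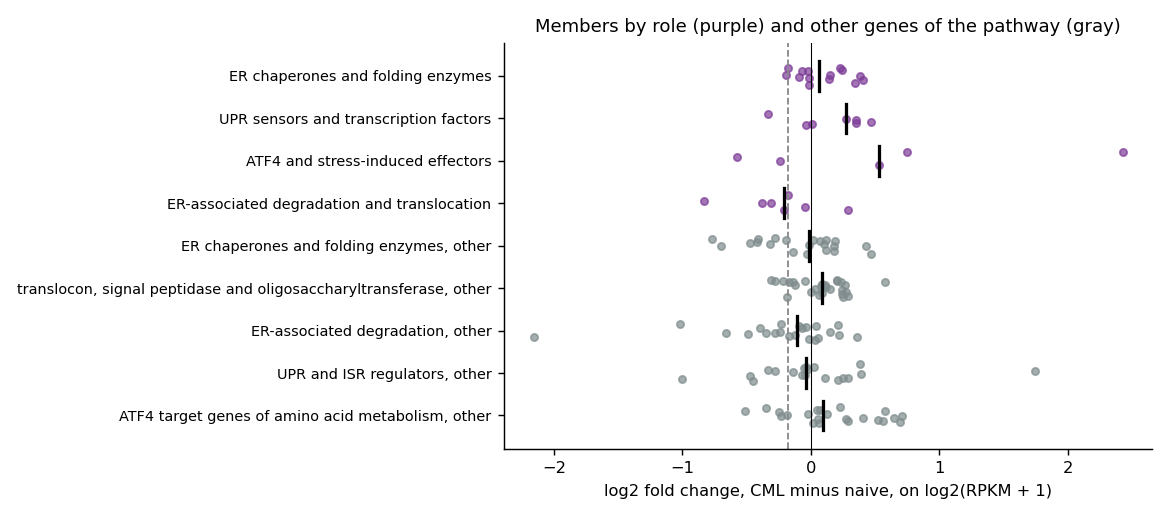
Log2 fold changes (CML minus naive, log2(RPKM + 1)) of single genes tested, with members by role in purple and 5 lists of other pathway genes in gray. Black bars are medians and the dashed line is the median of all genes at -0.18. The medians of the roles run from -0.21 for degradation and translocation to 0.53 for the effectors, and those of the lists from -0.11 to 0.10.

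A further 122 genes in 5 lists cover the rest of the pathway, and 111 of them were tested. None passed the adjusted p. By the unadjusted p 3 were higher and 2 lower, 6 lay above and 6 below without overlap, and the median log2 fold change was 0.03. These shares can be read beside 2.92%, 6.77%, 4.84% and 12.2% of all genes.

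Among 21 other folding genes, Ppib, the cyclophilin of the ER, had 201, 204 and 222 RPKM in CML and 170, 154 and 142 RPKM in naive Tregs. The CML libraries lay above all naive libraries (log2 fold change 0.43, SE 0.14, adjusted p = 0.396, limma). Among 27 genes of the translocon, signal peptidase and oligosaccharyltransferase, Srp14, a signal recognition particle subunit, passed the unadjusted p, with 177, 301 and 313 RPKM against 209, 153 and 157 RPKM. Of these 27 genes 18 had a positive log2 fold change, with a median of 0.09.

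The 22 other degradation genes had 15 negative and 7 positive log2 fold changes (31.8% positive, compared with 35.7% of all genes) and a median of -0.11. Rnf5, a membrane ubiquitin ligase, had 3.63, 0 and 0 RPKM in CML and 8.87, 3.99 and 7.37 RPKM in naive Tregs (adjusted p = 0.391, limma). Vimp, a selenoprotein of the degradation complex, had 45.8 ± 9.24 RPKM in CML and 63.8 ± 1.68 RPKM in naive Tregs (SD, n = 3; log2 fold change -0.49, adjusted p = 0.492, limma). Among the 19 regulators, Jdp2, a partner of ATF and AP-1 factors, had 9.38, 14.8 and 27.5 RPKM in CML and 6.40, 4.59 and 1.97 RPKM in naive Tregs. Its CML libraries all lay above the naive libraries (log2 fold change 1.75, SE 0.52, adjusted p = 0.328, limma). The kinase Eif2ak2, which responds to viral RNA, and Cebpg, a partner of ATF4, also lay above, with log2 fold changes of 0.29 and 0.39. They were named after their values were seen. The median of the regulators was -0.04.

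Of 30 other ATF4 targets of amino acid metabolism 22 were tested, and 0 passed the unadjusted p in limma. Of these 16 had a positive and 6 a negative log2 fold change, with a median of 0.10. The largest log2 fold change in this list was 0.71.

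Within groups the members varied much like other genes. For the 28 members with a mean of at least 10 RPKM the median coefficient of variation was 27.5% in CML and 14.8% in naive Tregs, and it was 28.1% and 15.4% over all genes at that level. CML replicate 2 held the lowest CML value in 21 of 33 members (63.6%), compared with 57.1% of all genes tested, and CML replicate 3 the highest in 19 (57.6%), compared with 43.3%. Naive replicate 1 held the highest naive value in 18 members (54.5%) and naive replicate 2 the lowest in 19 (57.6%), compared with 39.7% and 31.6% of all genes.

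Markers of plasmacytoid dendritic cells (pDCs), a secretory cell type of the marrow, had reads in every library (6 of 6 markers). They summed to 662, 545 and 683 RPKM in CML replicates 1 to 3 and to 1040, 385 and 608 RPKM in naive replicates 1 to 3, with Siglech at 91.9 to 222 RPKM. Within the naive group, replicate 1 was highest and replicate 2 lowest for this sum, for Hspa5, for Xbp1 and for Herpud1 (72.6, 45.7 and 60.8 RPKM). Many members did not have this order. Calr was lowest in naive replicate 1 (305 RPKM) and Pdia3 in naive replicate 3 (271 RPKM). Hsp90b1 and Ddit3 were highest in naive replicate 3 (348 and 34.4 RPKM) and Canx in naive replicate 2 (195 RPKM). Of the 33 members tested, naive replicate 1 was highest in 18 and naive replicate 2 lowest in 19. Within the CML group, replicate 3 was highest and replicate 2 lowest for the sum, Hspa5 and Herpud1, while Xbp1 was lowest in replicate 1 (68.6 RPKM). The part of pDC RNA in these values was not tested.

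**Figure D5:**
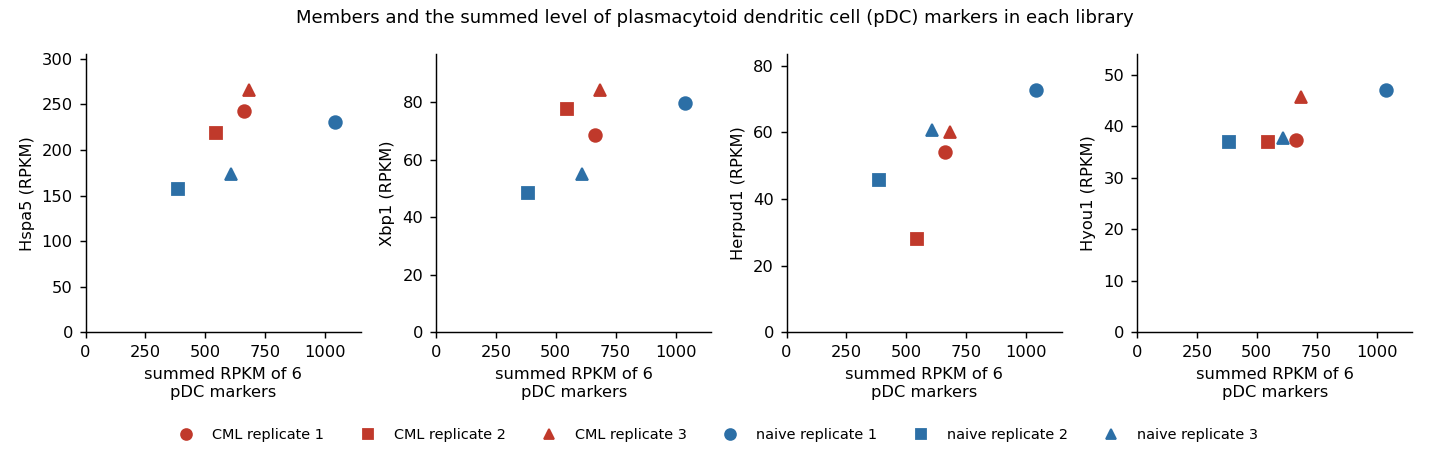
RPKM of Hspa5, Xbp1, Herpud1 and Hyou1 against the summed RPKM of 6 pDC markers, with 1 symbol for each of the 3 naive (blue) and 3 CML (red) libraries. Naive replicate 1, with a sum of 1040 RPKM, holds the highest naive value of all 4 genes, and naive replicate 2, with 385 RPKM, the lowest. In the CML group Xbp1 is lowest in replicate 1, while the sum is lowest in replicate 2. Many members not shown, such as Calr, Pdia3 and Hsp90b1, do not have the naive order of the sum.

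The other marker lists also had reads. The 12 B and plasma cell markers summed to 471 to 601 RPKM in CML and 581 to 761 RPKM in naive Tregs, while Ebf1 and Pax5 were at 0 in all libraries. Neutrophil and myeloid markers summed to 26.4, 227 and 240 RPKM in CML replicates 1 to 3 and to 40.9 to 61.9 RPKM in naive Tregs, and 7 of 12 had reads in all libraries. Erythroid markers summed to 124, 35.6 and 209 RPKM in CML and to 5.01 to 30.2 RPKM in naive Tregs, and 3 of 8 had reads in all libraries. Markers of CD8 T and NK cells summed to 81.9 to 110 RPKM in CML and 42.6 to 87.7 RPKM in naive Tregs. CML replicates 1 and 3 had the most erythroid signal and the highest Pdia3 and Calr. CML replicate 2 held the lowest CML value in 57.1% of all genes tested. Within the CML group Asns had the same order as the neutrophil sum, and the share of all genes with this order is not given here. In CML replicate 1 the neutrophil sum was 26.4 RPKM and Asns 2.88 RPKM. In the naive libraries the sums were 40.9 to 61.9 RPKM and Asns 0.07 to 1.095 RPKM. The part of these cells in the members' values was not tested.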

How the data were processed

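The authors prepared SMART-Seq v4 libraries, which do not mark strand, from RNeasy Micro RNA, sequenced single-end reads on an Illumina NextSeq, and processed them in SeqMan NGen and ArrayStar. Their processing notes name GRCm38 (mm10). The deposited tables are taken to hold RPKM, although none of the sources used here names the unit. A value of 0.001 marks no reads and was set to 0. Depth was estimated from the step of value times length over 1297 small RNA genes. It was used for the floor of 3 reads, for the estimated reads of single genes and to compare the depth of libraries. Floors cover counting error only.

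limma 3.58.1 (R 4.3.3) was run on log2(RPKM + 1) for the 13923 genes whose mean reached 1 RPKM, with a trended prior variance, no replicate block and Benjamini-Hochberg adjustment, and was tested on simulated data. Count models were not run on these values. Other steps used Python 3.11.15, pandas 2.3.3 and BLAST+ 2.17.0. Gene positions came from GENCODE M21 and promoters from RefSeq (GRCm38.p6).

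The members and lists were chosen with earlier results of these data known. Values in every library are given for Hspa5, Ern1, Xbp1, Atf6, Eif2ak3, Atf4, Ddit3 and each member with an unadjusted p under 0.05, without overlap or with a fold of at least 1.5; others were added after their values were seen. From each further list, at most 3 genes past the unadjusted p are named. The alternatives covered pseudocount, filter, scaling, each library left out, replicate block, variance trend and library weights.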

Additional observations from a re-analysis of the deposited data

How the results depend on the processing

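No member passed the adjusted p and fold of 1.5 under any of the 16 alternatives. The count of members higher in CML Tregs by an unadjusted p under 0.05 was 2, and it was 1 with a pseudocount of 0.001, without a filter, at a mean of at least 5 RPKM (where Asns is not tested), with the replicate block and without the variance trend, 4 with the same 75th percentile or the same sum without features over 1%, and 5 with quantile normalization or library weights. The count lower in CML Tregs was 1, and it was 0 with the replicate block and without the variance trend, and 2 with library weights. Of all 13923 genes tested, 1348 passed the unadjusted p in either direction. That number was 1507, 1494 and 1476 with quantile, 75th percentile and sum scaling. It was 1537 with library weights, 1175 with the replicate block and 1333 without the variance trend. Under each of the 3 scalings 6 members lay above all naive libraries, which adds Calr, Hspa5 and Pdia6 to Asns, Ern1 and Pdia3. The share of all genes that lay above under these scalings is not given here. The median log2 fold change of the members was 0.20 with quantile normalization and with library weights, where that of all genes was -0.01 and -0.08. Eif2ak3 reversed to 0.094, 0.026 and 0.063 under quantile, 75th percentile and sum scaling and to 0.197 with library weights. Without 1 library each, Eif2ak3 ran from -0.265 to 0.240 (positive without CML replicate 2, naive replicate 1 or naive replicate 3), Selk from -1.554 to 0.330 (positive without CML replicate 1), Atf6 from -0.105 (without CML replicate 3) to 0.573, and Atf4 from -0.083 to 0.116 (negative without CML replicate 3 or naive replicate 3). The cause was not tested.

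Leaving out 1 library at a time gave 1 to 5 members higher and 0 to 1 lower by the unadjusted p, 3 to 8 members above and 1 to 2 below without overlap, and medians of -0.023 to 0.193. The 5 and 8 members and the median of 0.193 came without CML replicate 2, the shallowest library. Over all genes, the number past the unadjusted p in either direction moved as well. It ran from 762 of 13868 without naive replicate 2 to 1863 of 13887 without CML replicate 1, and was 1770 of 14034 without CML replicate 2. Shares of all genes by direction are not given for these fits. The counts of members higher or lower are therefore a description only. With fewer libraries in a group, lack of overlap arises more easily. The counts above and below therefore cannot be read against the 4.84% and 12.2% of all genes with 6 libraries. No pairing of mice by equal replicate numbers was detected (correlations of -0.005, -0.002 and -0.019 over 13923 genes). Unequal numbers gave -0.042 to 0.052, and these correlations cannot exclude a pairing. With the replicate block 1 gene of all passed the adjusted p, compared with 24 without it. Members at a few reads, such as Asns, Chac1, Trib3 and Atf5, are limited by depth.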

Other observations

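Among the ATF4 targets of amino acid metabolism, 2 groups were picked after their values were seen and were not tested. The 3 enzymes of serine synthesis, Phgdh, Psat1 and Psph, had log2 fold changes (CML minus naive) of 0.58 to 0.71. They summed to 42.3, 33.6 and 22 RPKM in CML replicates 1 to 3 and to 16.9, 23.4 and 17.1 RPKM in naive replicates 1 to 3, so the groups overlapped. Phgdh, the first enzyme of the path, was higher in every CML library (7.79, 6.02 and 7.65 RPKM) than in every naive library (3.97, 3.35 and 5.38 RPKM; adjusted p = 0.62, limma). Of the 12 aminoacyl-tRNA synthetases 6 had a positive and 6 a negative log2 fold change, from -0.51 to 0.56. They summed to 381, 295 and 455 RPKM in CML and to 364, 416 and 360 RPKM in naive Tregs. For Iars and Mars, which charge tRNAs with isoleucine and methionine, all CML values lay below the naive range (adjusted p = 0.592 and 0.653, limma). Of all genes tested, 12.2% lay below in this way. Mars overlaps Ddit3 on the other strand, so its reads cannot be told apart from those of Ddit3.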
